A study of Rattus norvegicus with 9 samples.

Results

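Valproate (VPA) and lithium are mood stabilisers with unlike chemistry, and the genes that separate them were read from 6 RNA-seq libraries of rat RN46A cells: the 3 libraries from VPA-treated cells against the 3 from lithium-treated cells, of 9 in the series. The 6 were chosen by their labels alone and fitted together without the 3 control libraries. RN46A is an immortalised line made from the serotonergic raphe region of the embryonic rat hindbrain with a temperature-sensitive T antigen, and all libraries come from this 1 line. The cells were kept at 33 °C in medium with 5% serum, and were differentiated for 72 h at 39 °C on collagen and fibronectin with 1% serum and N2 supplement. The groups then differed only in the drug named: 0.5 mM VPA or 0.5 mM lithium for 72 h, while the control libraries carry the same 72 h label with no drug. The labels do not state whether the replicates are separate cultures; if they are not, the p-values reflect only technical spread between libraries.

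VPA, a branched short-chain fatty acid, inhibits class I and IIa histone deacetylases, the enzymes that take acetyl groups off histone tails, and the acetylated chromatin that builds up is generally more open to transcription. Lithium, a metal ion, inhibits glycogen synthase kinase 3, which marks beta-catenin for destruction, and inositol monophosphatase, which recycles inositol for phosphoinositide signalling. In neurons both drugs are known for slow effects on the expression of growth factor, survival and signalling genes. None of these actions was measured here.

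The 6 libraries held 9658054 to 13030300 counts each, so that 1 count was worth 0.0774 to 0.108 CPM, the count scaled to library size. The first principal component of log2 CPM, with 52.5% of the variance, separated VPA from lithium, and the second, with 19.4%, separated the library numbered 3 of each group from those numbered 1 and 2. A fit without both libraries numbered 3 was added after the components were seen, and its values are given where it ends a call or moves a count. Names came only from the authors' tables of genes changed against control, made partly on these same libraries: 1226 of the 12548 genes tested had a symbol. The defining serotonergic genes Tph2, Slc6a4 and Fev were not among them and are not analysed here, so the labelled cell type was not checked against them.

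VPA-treated cells held more genes at the higher level. Of the 12548 genes tested, 829 were higher with VPA (6.61%) and 368 were higher with lithium (2.93%), at a Benjamini-Hochberg adjusted p under 0.05 in the quasi-likelihood test of edgeR (n = 3 and 3). Sizes differed by direction too: the median was 1.42 on the log2 scale (2.67-fold) for genes higher with VPA, and 1.94-fold for genes higher with lithium. At least 4-fold differences numbered 224 with VPA and 21 with lithium, and at least 8-fold differences 71 and 5. In the first set the libraries of the groups did not overlap for any of the 829 genes, and in the second they overlapped for 1 of 368. Over all genes tested they did not overlap in 29.4%, but among those with a symbol in 1107 of 1226. Non-overlap of a named gene below is therefore no separate result, and ranked names also required it. Because the tables that supply names list genes that moved against control, 49.8% of tested genes with a symbol were higher with VPA and 23.1% higher with lithium, with a median log2 difference of 0.86 against -0.02 over all genes tested. List members are such named genes, so each gene list below is read beside those shares and the 0.86; a list median near it is not a result about the list. Without 1 library at a time, the VPA-higher count fell by more than 1.5 times only without lithium 1 (519), and the lithium-higher count without VPA 1 (219), VPA 2 (203), lithium 1 (182) and lithium 2 (237). Without both libraries numbered 3 the counts were 547 and 176.

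The direction depended on how highly a gene was read. Among the 3118 genes with a mean of 1 to 10 CPM, 444 were higher with VPA and 91 with lithium, so that 83% of calls lay on the VPA side. Among the 6888 genes of 10 to 100 CPM the counts were 293 and 190, and 60.7% lay on the VPA side. Among the 2201 genes of 100 to 1000 CPM they were 45 and 79, and 36.3% lay on the VPA side. Sizes of called genes shrank along the same classes, from a median log2 difference of 1.74 in the 1 to 10 CPM class to 0.91 in the 100 to 1000 CPM class for VPA-higher genes, and from -1.48 to -0.71 for lithium-higher genes. A lowly read gene needs a larger difference to be called, so these medians cannot show that sizes themselves fall with level. The genes that VPA-treated cells hold at a higher level are thus mostly lowly read ones, and the abundantly read genes that separate the drugs lie more often on the lithium side. CPM is not a level per gene length, so these classes are of read depth, not of transcript number.

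**Figure D1:**
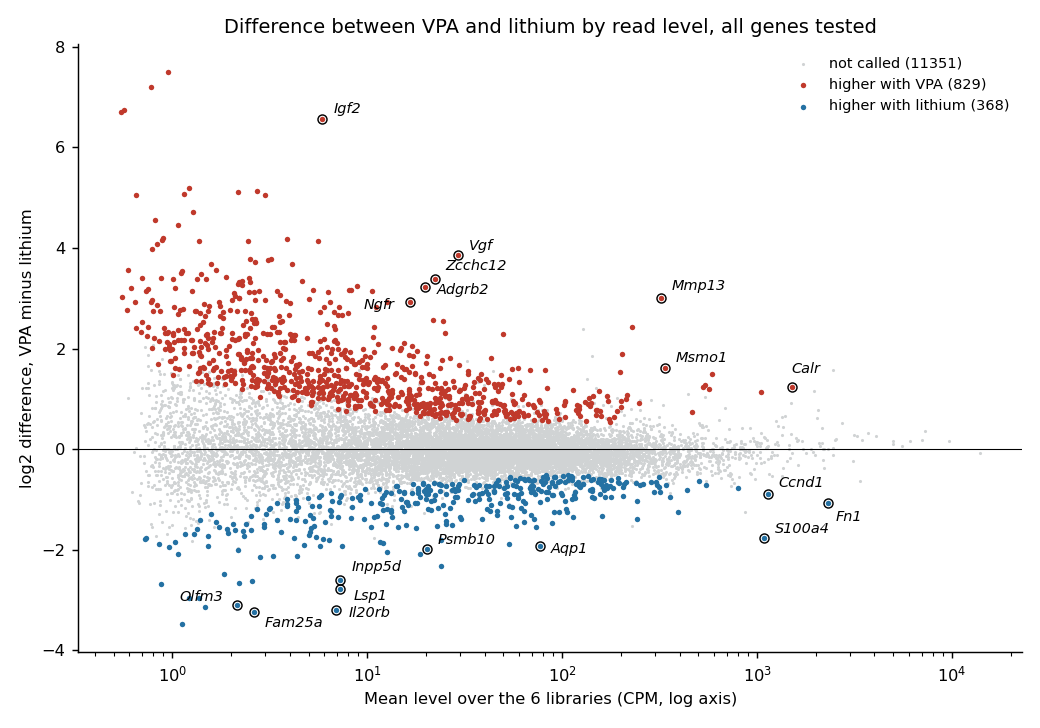
Each point is 1 of the 12548 genes tested; the x axis is its mean level over the 6 libraries in CPM (log axis) and the y axis its log2 difference, VPA minus lithium. Red points (829) were called higher with VPA and blue points (368) higher with lithium at an adjusted p under 0.05; the red points reach farther from 0 at low levels, and named genes are ringed.

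**Figure D2:**
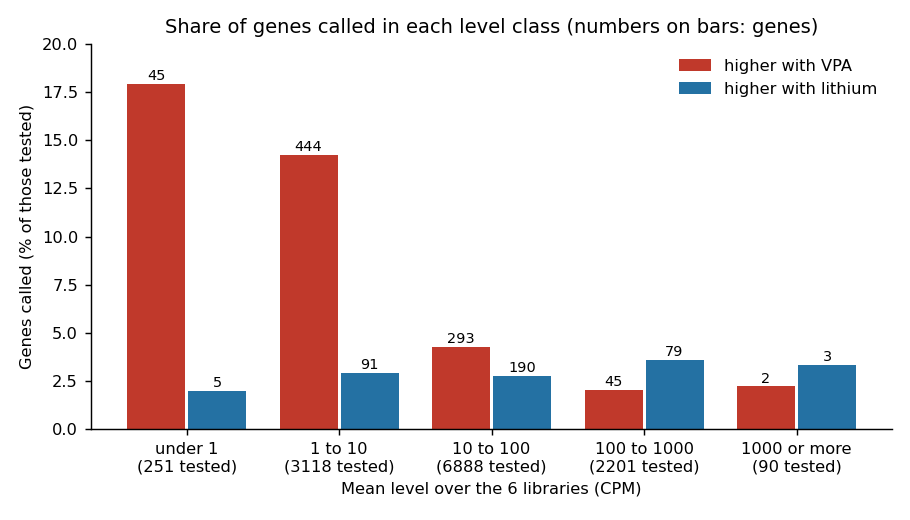
Bars give the share of tested genes called in each class of mean level (CPM), red for higher with VPA and blue for higher with lithium, with the number of genes on each bar. The red share falls from 17.9% under 1 CPM to 2.04% at 100 to 1000 CPM, while the blue share stays between 1.99% and 3.59%. A gene under 1 CPM on average can pass the count filter through 1 group alone, so the shares in that class depend on the filter.

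Growth factor and neurotrophin genes were mostly higher with VPA. Of 12 tested genes of the list of neurotrophic factors, growth factors and neuropeptides, 10 were higher with VPA and 1 with lithium, with a list median of 1.52 on the log2 scale against 0.86 over tested genes with a symbol and -0.02 over all genes tested. Igf2, the imprinted insulin-like growth factor of fetal tissue, was read at 11.1, 11.2 and 12.7 CPM in the VPA libraries and at 0, 0.179 and 0.155 CPM in the lithium libraries. VPA libraries were close together and lithium libraries lay at the edge of detection, with 402 counts against 4 over each group, which is a 104-fold ratio (95% interval for counting error, 40.4 to 384; adjusted p = 5.51e-05, edgeR). Vgf, a neurotrophin-induced precursor of secreted neuropeptides, was read at 38.9, 48.9 and 75.8 CPM with VPA and at 2.95, 3.22 and 5.03 CPM with lithium. The groups lay far apart, with a log2 difference of 3.86 ± 0.31 (SE, n = 3 and 3; adjusted p = 0.000104, edgeR). Ngfr, the low-affinity receptor of the neurotrophins, was at 26.1, 27.4 and 34.7 CPM with VPA against 4.42, 3.39 and 3.79 CPM with lithium, a log2 difference of 2.92 ± 0.22. All 3 of these genes were higher in each VPA library than in any lithium library, as were all 829 genes called on that side. The exception of the list was Igfbp4, a binding protein that holds insulin-like growth factors, at 36.3, 34.4 and 42.1 CPM with VPA and 90.3, 77.2 and 88 CPM with lithium (log2 difference -1.18 ± 0.16).

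Igf2 is also 1 of 3 tested genes on a list of imprinted genes, and all 3 were higher with VPA. Over all tested genes with a symbol 49.8% were. Cdkn1c, the imprinted inhibitor of cyclin-dependent kinases, was at 10.3, 10.1 and 13 CPM with VPA and 2.34, 3.13 and 1.94 CPM with lithium (log2 difference 2.18 ± 0.27; adjusted p = 0.000825, edgeR). Plagl1, an imprinted zinc finger transcription factor, was at 42.7, 42.6 and 26.9 CPM against 7.37, 14.4 and 11.2 CPM (log2 difference 1.76 ± 0.27). In both genes the lowest VPA library lay above the highest lithium library.

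The genes with the smallest p-values on the VPA side were, with Igf2 and Ngfr, Zcchc12, Adgrb2 and Mmp13. Zcchc12, a zinc knuckle coactivator found in brain, was at 30.8, 43.2 and 47.7 CPM with VPA and 4.16, 4.29 and 3.17 CPM with lithium, a log2 difference of 3.39 ± 0.24. Adgrb2, a brain adhesion G protein-coupled receptor, was at 31.9, 34.6 and 40.2 CPM against 3.47, 4.82 and 3.1 CPM, a log2 difference of 3.23 ± 0.23. Mmp13, a collagenase of the matrix metalloproteinase family, was at 451, 611 and 650 CPM against 68.7, 57.8 and 85.6 CPM, a log2 difference of 3.01 ± 0.22. These 3 genes had an adjusted p of 5.51e-05 each by edgeR, and no alternative fit ended their calls. Mmp13 stood out among them as a well-read gene with a large difference.

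**Figure D3:**
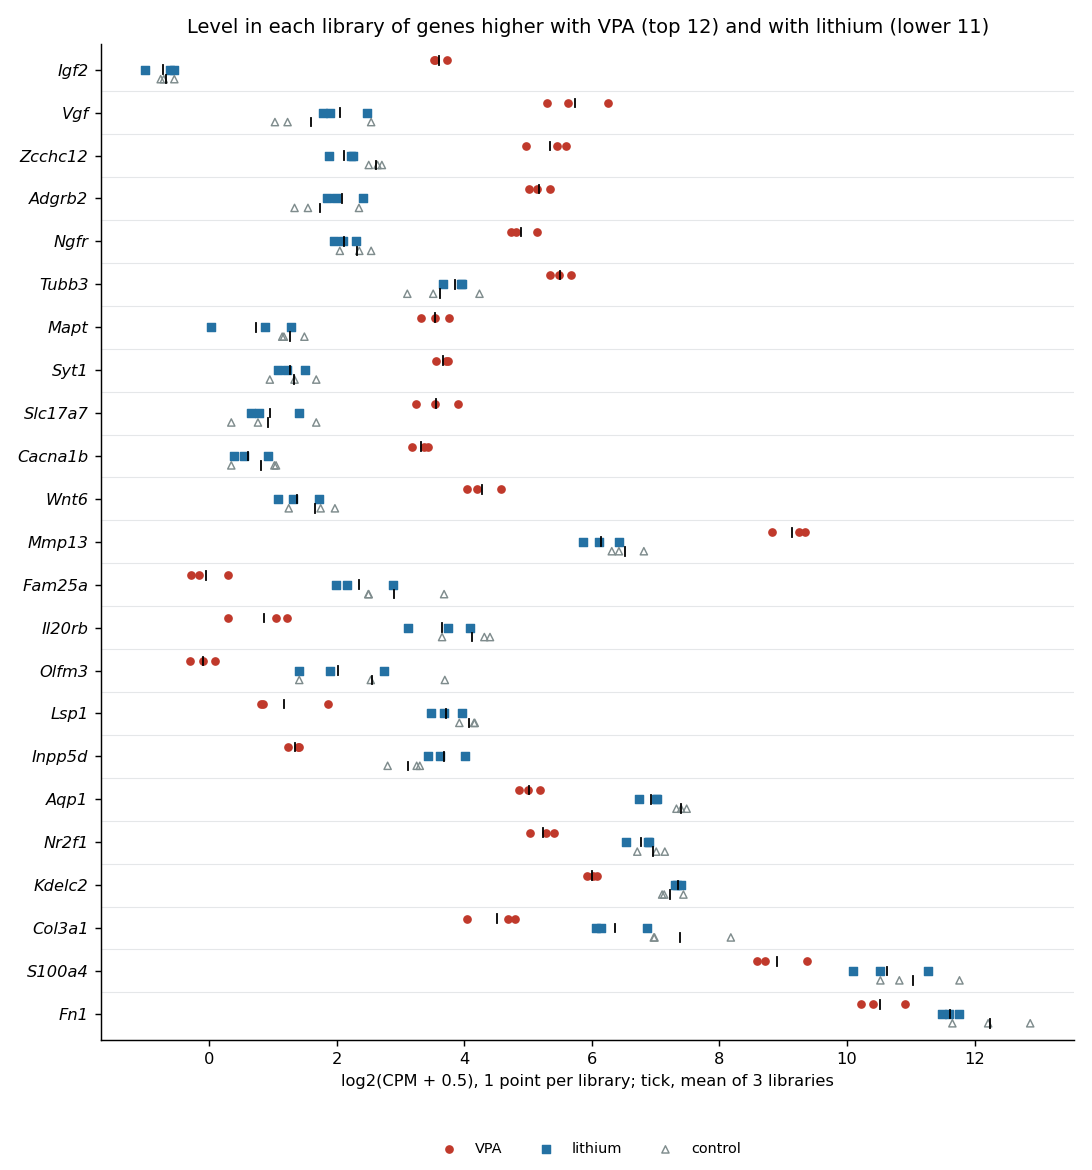
Each point is the level of a gene in 1 library, as log2(CPM + 0.5): filled red circles for VPA, blue squares for lithium and open triangles for the controls, which were not in the fit; ticks are the means of 3 libraries. In the 12 upper genes every VPA library lies to the right of the lithium libraries and in the 11 lower genes to the left; CPM is not corrected for gene length, so genes are not to be compared with each other.

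Some VPA-higher genes were near silent with lithium. Of the 829, 15 had 3 counts or fewer over the lithium libraries together, and 4 of these had 0. A gene this low in 1 group passes the count filter only through the other group, so it had to differ: the 15 are also all the genes tested with so few lithium counts, and 0 genes tested had so few over the VPA libraries. These counts are therefore a description. Genes under about 10 counts in each library of 1 group also pass the filter only through the other group. With lithium this holds, among others, for Igf2, Agap2, Nrgn, Chrna5, Shank3, Nrxn2, Nxph4, Lingo1, Kcnh3, Snap25, Esrp1, Lcp1, Sox10 and Htr5b. With VPA it holds for Epha10, Mcpt8l2, Fam25a and Olfm3. Their calls and the medians of their lists are to be read as a description too. Shank1, which builds the scaffold under glutamate receptors, had 38 counts with VPA and 0 with lithium, at least 13.1-fold higher when 3 counts over the group are taken as the floor. Rtn4rl2, a Nogo receptor homolog, was at least 18.7-fold higher by the same floor (54 counts against 0), and Pde9a, which degrades cyclic GMP, at least 23.5-fold higher (68 against 0). These 3 were named after their values were seen, and their fitted log2 values depend on the prior count. Among the genes of the largest fitted differences, Tmc7 had 85 counts against 2 (ratio 44.1, interval 11.8 to 370), Kcnh3, a potassium channel of the forebrain, 146 against 4 (37.8, 14.5 to 141), and Ccnd2, a D-type cyclin, 72 against 3 (24.9, 8.18 to 123). The muscarinic receptor gene Chrm4 had 78 against 2 (40.4, 10.8 to 340) and the kallikrein-related gene Klk13 85 against 3 (29.4, 9.72 to 145). The intervals are wide because the lithium counts are few, and they cover counting error only. Fitted log2 differences of such genes moved with the library left out: Chrm4 from 5.07 to 7.73 without lithium 2 and to 4.14 without both libraries numbered 3, Ccnd2 from 4.47 to 5.26 without lithium 3, and Klk13 from 4.71 to 5.59 without lithium 1. In bulk RNA, more cells expressing such a gene and more RNA per cell cannot be told apart.

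Genes listed as general neuronal or neuronal cytoskeleton genes were nearly all higher with VPA. Of 12 tested members of the list, 11 were higher with VPA, 0 with lithium and 1, Celf3, was not called (log2 difference -0.41, adjusted p = 0.605, edgeR); the list median was 2.06. Tubb3, the neuron-specific beta-tubulin, was at 40.1, 44.2 and 50.2 CPM with VPA and 12.1, 15.1 and 14.9 CPM with lithium. Its groups lay well apart with little spread in either, a log2 difference of 1.67 ± 0.18. Mapt, the axonal microtubule-binding protein tau, was at 9.5, 11.2 and 13.1 CPM against 0.52, 1.34 and 1.94 CPM (log2 difference 3.13 ± 0.37). Map2, its counterpart in dendrites, was at 83.6, 68.9 and 78.1 CPM against 24.5, 31.6 and 32 CPM (log2 difference 1.39 ± 0.18). Kif1a, a kinesin that carries synaptic vesicle precursors, and L1cam, an axonal adhesion molecule, differed by 2.67 ± 0.33 and 2.91 ± 0.36 on the log2 scale. Leaving out 1 library at a time ended none of these 5 calls. Stmn1, the abundant microtubule-destabilising protein of growing cells, went the other way, at 538, 647 and 581 CPM with VPA and 1111, 981 and 934 CPM with lithium (log2 difference -0.78 ± 0.18; adjusted p = 0.018, edgeR), while its neuronal relative Stmn4 was higher with VPA (2.21 ± 0.43). The Stmn1 call was lost without VPA 1 (adjusted p = 0.0735), without lithium 1 (0.0601) and without both libraries numbered 3 (0.0731), and the Stmn4 call in the last of these fits (0.0542).

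Genes that load and release synaptic vesicles separated the drugs in the same direction. Of 13 tested members, 9 were higher with VPA, 0 were higher with lithium and 4 were not called (Erc2, Bsn, Rab3a and Rims2), and the median was 2.08. Syt1, the calcium sensor of release, was at 13, 11.3 and 12.5 CPM with VPA and 1.82, 1.61 and 2.32 CPM with lithium (log2 difference 2.67 ± 0.25; adjusted p = 0.000276, edgeR). Snap91, a clathrin adaptor that retrieves vesicles, was at 12, 12.4 and 11 CPM against 2.25, 1.43 and 1.63 CPM (2.73 ± 0.26). Slc17a7, which loads vesicles with glutamate, was at 8.95, 11.1 and 14.4 CPM against 1.21, 1.07 and 2.17 CPM (2.93 ± 0.33). All VPA libraries lay above all lithium libraries in these 3 genes. Snap25, a membrane-fusion subunit, was at 5.5, 6.13 and 2.59 CPM against 0.693, 0.804 and 0.31 CPM, and the library numbered 3 was the low one in both groups (2.97 ± 0.46). Syn1, a synapsin that tethers vesicles, showed the reverse order, with the libraries numbered 3 highest at 32.8 CPM with VPA and 11.5 CPM with lithium (log2 difference 1.70 ± 0.42; adjusted p = 0.029). That call was lost without any 1 of VPA 1, VPA 3, lithium 1 and lithium 2 (0.0639 to 0.152), with all 9 libraries (0.0718) and with no filter (0.17), and the difference was 2.39 without lithium 3.

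On the receiving side of the synapse 8 of 10 tested genes were higher with VPA and 1 with lithium, with a median of 3.22 that was the same with Shank1 at its bound. Shank1, Shank3, Nrgn, Agap2 and Chrna5 passed the count filter only through the VPA libraries, so this count and median are a description. Shank3, a scaffold of the postsynaptic density, was at 3.85, 5.16 and 5.18 CPM with VPA and 0.433, 0.536 and 0.619 CPM with lithium (log2 difference 3.12 ± 0.35; adjusted p = 0.000545, edgeR). Nrgn, neurogranin, which binds calmodulin in dendritic spines, had 206 counts against 6 (ratio 35.6, interval 16.1 to 98.1), and Agap2, a GTPase-activating protein that binds phosphoinositide 3-kinase, 180 against 5 (37.3, 15.7 to 116). Their fitted log2 differences rose from 5.05 to 5.91 without lithium 3 and from 5.14 to 6.69 without lithium 1. Chrna5, a nicotinic receptor subunit, was at 4.47, 3.98 and 5.66 CPM against 0.173, 0.179 and 0.619 CPM (3.78 ± 0.45, and 4.68 without lithium 3). The gene higher with lithium was Grin2d, an NMDA receptor subunit of the developing brain, at 4.63, 4.73 and 4.61 CPM with VPA and 8.32, 9.74 and 11 CPM with lithium (-1.06 ± 0.23; adjusted p = 0.0135, and 0.0807 without both libraries numbered 3).

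Of 8 tested voltage-gated channel genes 6 were higher with VPA and 1 with lithium (median 1.92), and these counts were the same in each of the 17 alternative fits. Cacna1b, the pore of N-type calcium channels that trigger release, was at 10.3, 9.79 and 8.58 CPM with VPA and 0.953, 0.804 and 1.39 CPM with lithium (log2 difference 3.16 ± 0.29; adjusted p = 0.000266, edgeR). Cacna1h, a low-voltage-activated T-type calcium channel, was at 19.1, 26.1 and 20.2 CPM against 6.59, 7.68 and 9.98 CPM (1.43 ± 0.23). Both calcium channels thus lay on the VPA side. Kcnip4, a calcium-binding partner of potassium channels, lay on the lithium side, at 0.942, 0.538 and 1.05 CPM with VPA and 4.77, 2.59 and 3.1 CPM with lithium (4.01-fold higher with lithium; adjusted p = 0.00786).

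Neuronal adhesion and axon guidance gave the most calls of any list on the VPA side, 16 of 19 tested genes higher with VPA and 1 higher with lithium, with a median of 1.58. Nrxn2, a presynaptic neurexin, was at 5.02, 5.06 and 7.36 CPM with VPA and 0.607, 0.179 and 0.464 CPM with lithium (log2 difference 3.76 ± 0.41; adjusted p = 0.00052, edgeR). Its secreted ligand Nxph4, a neurexophilin, was at 4.79, 8.17 and 9.06 CPM against 0.347, 0.447 and 0.387 CPM (4.18 ± 0.39). Lingo1, a Nogo receptor partner that restrains myelination and axon growth, was at 6.59, 4.95 and 11.3 CPM against 0.607, 0.625 and 0.542 CPM (3.68 ± 0.40). Receptor, ligand and growth-restraining partner were all higher in each VPA library. Epha10, an ephrin receptor without kinase activity, was the exception, with 9 counts over the VPA libraries and 76 over the lithium libraries (log2 difference -2.97 ± 0.56, and -3.65 without VPA 2). The lithium-side count of 1 became 2 without lithium 3 and without both libraries numbered 3.

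**Figure D4:**
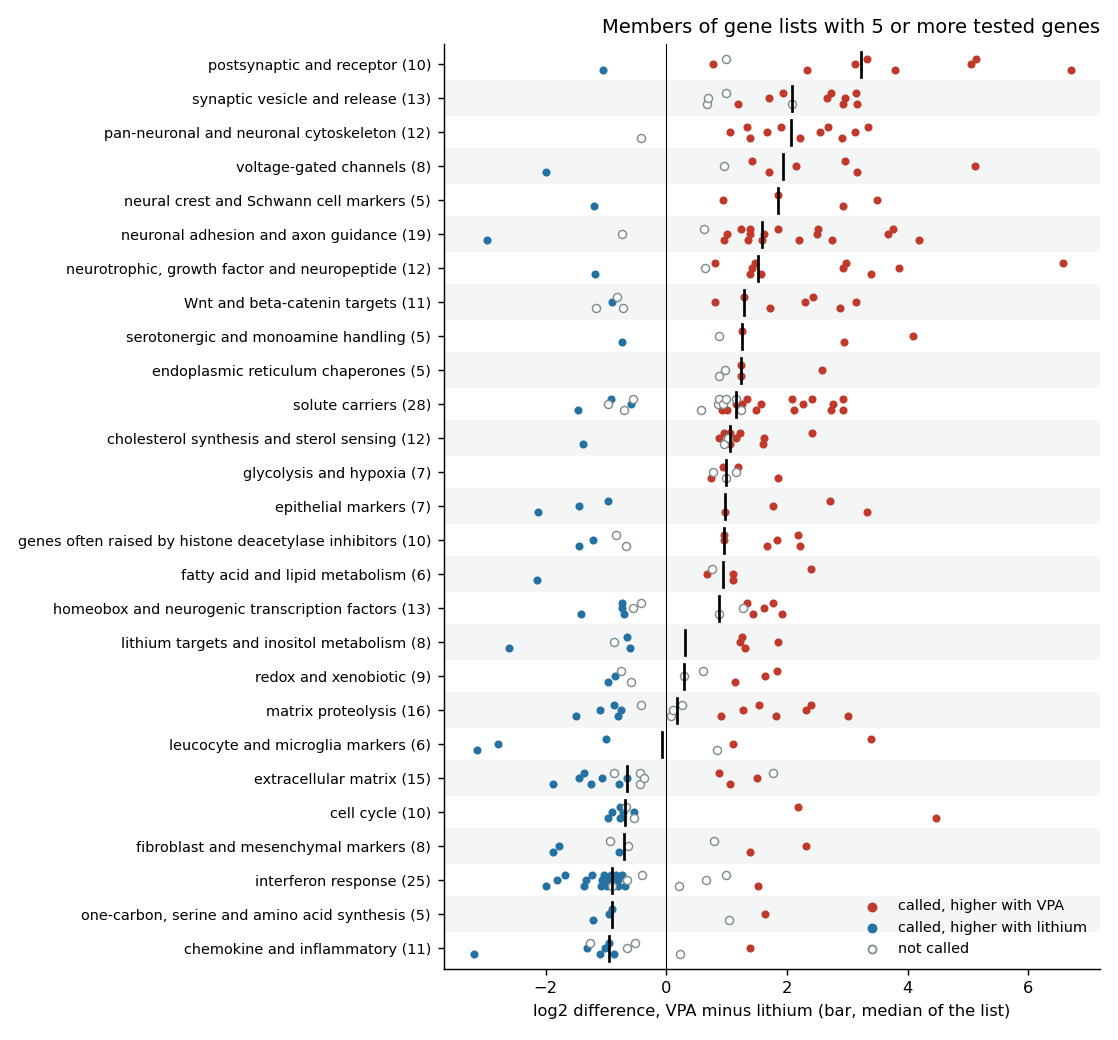
Each point is the log2 difference (VPA minus lithium) of 1 tested gene of the list named on the y axis, with the number tested in brackets: red, called higher with VPA; blue, called higher with lithium; open, not called; the bar is the list's median. The lists of neuronal cytoskeleton, synapse, channel, adhesion and growth factor genes have medians from 1.52 to 3.22. The median over all tested genes with a symbol is 0.86. Serotonergic and monoamine (1.26) and neural crest and Schwann cell (1.85) lists also lie to the right. Interferon-response (-0.90) and chemokine and inflammatory (-0.96) genes lie to the left. The Shank1 point is a fitted value against 0 lithium counts.

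Few genes of serotonin and monoamine handling had a name, 5 of 36 listed, and 3 of them were higher with VPA and 1 with lithium. The shares over all tested genes with a symbol were 49.8% and 23.1%. Maob, the monoamine oxidase isoform of serotonergic neurons and glia, was at 8.48, 5.49 and 6.31 CPM with VPA and 1.21, 0.715 and 0.697 CPM with lithium (log2 difference 2.94 ± 0.34; adjusted p = 0.000664, edgeR). Slc29a4, a low-affinity plasma membrane monoamine transporter, was at 10.4, 11 and 12.4 CPM against 4.25, 5.09 and 4.72 CPM (1.26 ± 0.22). Both were clear of overlap. Htr5b, a serotonin receptor, had 55 counts against 3 (ratio 19, interval 6.17 to 95), and its fitted log2 difference rose from 4.08 to 4.97 without lithium 2. Hmx2, a homeobox gene, was at 9.97, 10.2 and 11.8 CPM with VPA and 17.6, 16.9 and 18.7 CPM with lithium (-0.73 ± 0.19; adjusted p = 0.0339), a call that was lost without any 1 of VPA 1, VPA 2, lithium 1, lithium 2 or lithium 3 (0.0792 to 0.127) and without both libraries numbered 3 (0.0843).

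Markers of other cell types did not move together. Of 5 tested neural crest and Schwann cell markers, 4 were higher with VPA and 1 with lithium; the summed level of the list was 74.3 to 78.7 CPM with VPA and 21.8 to 25 CPM with lithium, with no marker at 0 in any of the 6 libraries. Erbb3, the neuregulin receptor of Schwann cell precursors, was at 26.6, 28.2 and 25.6 CPM with VPA and 5.89, 9.29 and 7.12 CPM with lithium (log2 difference 1.85 ± 0.22; adjusted p = 0.00067, edgeR). Sox10, the transcription factor of that lineage, had 90 counts against 8 (ratio 11.7, interval 5.67 to 27.8; log2 difference 3.49, and 4.74 without lithium 3). S100b, a calcium-binding protein of glia, lay on the lithium side, at 1.88, 1.51 and 1.54 CPM against 4.94, 3.39 and 3.1 CPM (-1.20 ± 0.32; adjusted p = 0.0345), and the call was lost without any 1 of VPA 1, VPA 2, VPA 3, lithium 1 and lithium 2 (0.067 to 0.135) and without both libraries numbered 3 (0.0867). Of 6 tested leucocyte and microglia markers, 2 were higher with VPA (Lcp1 and Cd68), 3 with lithium (Lsp1, Mcpt8l2 and Cd14) and 1 was not called, and their summed levels overlapped, 54.2 to 92.7 CPM with VPA and 51.1 to 77.7 CPM with lithium. The VPA-side count of 2 became 1 without any 1 of VPA 2, VPA 3, lithium 1 and lithium 2, where Cd68 was lost. The defining leucocyte genes of the list without a name are not analysed here. The part of such markers in the neuronal results was not tested.

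Named genes of the Wnt pathway, in which lithium acts through beta-catenin, were more often higher with VPA than with lithium. Of 58 listed genes 11 had a name and were tested, and neither Axin2 nor Ctnnb1 was among them. Of the 11, 7 were higher with VPA and 1 with lithium, with a median of 1.29. The shares over all tested genes with a symbol were 49.8% and 23.1%. The summed level of the list was 989, 875 and 778 CPM with VPA and 1345, 1521 and 1797 CPM with lithium. Most of it was Ccnd1, which lay on the lithium side. Wnt6, a secreted ligand, was at 15.9, 17.9 and 23.4 CPM with VPA and 1.99, 1.61 and 2.79 CPM with lithium (log2 difference 3.15 ± 0.28; adjusted p = 0.000236, edgeR). Wnt11, a ligand of the branch that does not use beta-catenin, was at 4.63, 6.67 and 5.26 CPM against 1.3, 0.804 and 0.929 CPM (2.43 ± 0.32). Fzd4, a Frizzled receptor, was at 13.7, 7.85 and 7.69 CPM against 2.6, 3.13 and 3.17 CPM (1.72 ± 0.29), and VPA 1 was its high library. Lef1, the nuclear partner of beta-catenin and itself a target, was at 4.55, 4.19 and 6.47 CPM against 1.04, 0.804 and 1.24 CPM (2.29 ± 0.33). The ligand gene Wnt10b (-1.16 ± 0.35; adjusted p = 0.0615, and 0.0338 with no filter) and the receptor gene Fzd1 (-0.73 ± 0.23; adjusted p = 0.0763) pointed to lithium without being called. Ccnd1, the D-type cyclin that is a classical target of the pathway, lay on the lithium side, at 894, 774 and 700 CPM with VPA and 1265, 1423 and 1730 CPM with lithium (-0.90 ± 0.20; adjusted p = 0.0153). That call was lost without VPA 2 (adjusted p = 0.0608), VPA 3 (0.0502), lithium 3 (0.0578) and both libraries numbered 3 (0.121).

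Genes of inositol lipid signalling, the other field of lithium's action, split between the drugs. Of 8 tested, 4 were higher with VPA and 3 with lithium, and the median was 0.31. Over all tested genes with a symbol the shares were 49.8% and 23.1%, so the VPA count is that of the background. The list held 49 genes, and lithium's targets on it, Gsk3a, Gsk3b, Impa1, Impa2, Inpp1 and Bpnt1, had no name and are not analysed here. Plcg2, a phospholipase C that cleaves phosphatidylinositol bisphosphate, was at 30.1, 32.8 and 32.6 CPM with VPA and 7.62, 8.4 and 10.5 CPM with lithium (log2 difference 1.84 ± 0.20; adjusted p = 0.000453, edgeR). Marcks, a membrane-bound substrate of protein kinase C, was at 14.9, 17.1 and 13.7 CPM against 6.15, 6.79 and 6.66 CPM (1.22 ± 0.21). Inpp5d, a phosphatase that removes a phosphate from phosphatidylinositol trisphosphate, lay on the other side, at 2.12, 2.15 and 1.86 CPM with VPA and 10.2, 15.6 and 11.8 CPM with lithium (-2.61 ± 0.26; adjusted p = 0.000351). A lipid-cleaving enzyme was thus higher with VPA and a lipid phosphatase with lithium, each with tight VPA libraries. The kinases Akt1 and Akt2 were also called on the lithium side (-0.66 ± 0.16 and -0.60 ± 0.15), and the count of 3 fell to 1 without VPA 1, without VPA 2, without lithium 3 and without both libraries numbered 3. The count of 4 fell to 2 without lithium 1.

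Genes often raised by histone deacetylase inhibitors were not all on the VPA side: 6 of 10 tested were higher with VPA and 2 with lithium, with a median of 0.95, close to the shares and the median of all tested genes with a symbol. Beside Tubb3 and Cdkn1c, Gabarapl1, a protein of autophagosome membranes, was at 204, 224 and 253 CPM with VPA and 122, 107 and 123 CPM with lithium (log2 difference 0.95 ± 0.16; adjusted p = 0.00386, edgeR). Mt3, a brain metallothionein that binds zinc, was at 2.75, 4.3 and 3.56 CPM against 1.56, 0.625 and 0.774 CPM (1.83 ± 0.39; adjusted p = 0.0137, and 0.0961 without both libraries numbered 3). Aldh1l2, a mitochondrial folate enzyme, was higher with lithium, at 15.5, 13.4 and 9.55 CPM against 28.2, 33.9 and 27.4 CPM (-1.22 ± 0.22). The keratin gene Krt8, the other member on the lithium side, was at 3.45, 4.19 and 2.18 CPM against 11.3, 7.24 and 8.05 CPM (-1.44 ± 0.30), a call lost without lithium 1 (adjusted p = 0.0603) and without both libraries numbered 3 (0.0632). The lithium-side count of 2 became 1 without lithium 1 and 4 with DESeq2 or no filter. Of the deacetylases themselves only Hdac7, a class IIa enzyme, had a name and was tested; it was at 27.7, 32.3 and 36.4 CPM with VPA and 43.1, 45.3 and 59.6 CPM with lithium and was not called by edgeR (-0.62 ± 0.19; adjusted p = 0.0672), but passed with DESeq2 (0.043), with no filter (0.0312) and with a replicate block (0.0453).

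Genes of cholesterol synthesis were mostly higher with VPA. Of 12 tested genes, 9 were higher with VPA and 1 with lithium, with a median of 1.05, not far above that of all tested genes with a symbol, and the summed level was 1524, 1793 and 2952 CPM with VPA against 671, 681 and 1120 CPM with lithium. The library numbered 3 was the highest of each group. Msmo1, a sterol oxidase, was at 381, 464 and 681 CPM with VPA and 133, 127 and 237 CPM with lithium (log2 difference 1.62 ± 0.28; adjusted p = 0.00455, edgeR). Idi1, which makes the isoprene unit, was at 56.7, 73.4 and 120 CPM against 25.3, 24.4 and 32.7 CPM (1.60 ± 0.26). Hsd17b7, a ketosteroid reductase of the pathway, held steady within each group at 22.8, 22.7 and 22.7 CPM against 11.7, 11.2 and 10.1 CPM (1.05 ± 0.18). Insig1, the sterol sensor that holds back the pathway's transcription factor, was at 198, 287 and 664 CPM against 60.4, 54.4 and 99.9 CPM (2.42 ± 0.43; adjusted p = 0.0082), and its call was lost without lithium 1 (0.0574), lithium 2 (0.106) and with no filter (0.126), while its log2 difference was 1.76 without VPA 3. The gene on the lithium side was Abca1, which exports cholesterol (-1.39 ± 0.33; adjusted p = 0.0228). The count of 9 became 5 without lithium 1 and 5 without lithium 2. Abca1 was not called with all 9 libraries (0.0876), without both libraries numbered 3 (0.0578) or without any 1 of VPA 2, VPA 3, lithium 1 and lithium 2 (0.061 to 0.1).

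Chaperones of the endoplasmic reticulum stood high in 1 VPA library. Of 5 tested, 3 were higher with VPA and 2 were not called, beside 49.8% higher with VPA over all tested genes with a symbol. The summed level was 2560, 5802 and 2566 CPM with VPA against 1691, 1622 and 1541 CPM with lithium. VPA 2 was the high library. Calr, calreticulin, which folds glycoproteins, was at 1443, 3384 and 1506 CPM with VPA and 972, 856 and 861 CPM with lithium (log2 difference 1.24 ± 0.31; adjusted p = 0.0269, edgeR). Without VPA 2 the difference was 0.74 and the call was lost (adjusted p = 0.0662), as it was without lithium 1 (0.0773), lithium 2 (0.0804), lithium 3 (0.0743) and both libraries numbered 3 (0.0856). Pdia4, a disulfide isomerase, was at 553, 1133 and 530 CPM against 306, 319 and 320 CPM (1.23 ± 0.27; adjusted p = 0.0156, and 0.0676 without lithium 1). Sdf2l1, a chaperone cofactor, was at 26.8, 69.7 and 15.8 CPM against 6.33, 5.98 and 6.42 CPM (2.57 ± 0.47), with 1.79 without VPA 2 and no call without lithium 1 (0.0626), lithium 2 (0.122) or with no filter (0.113). In all 3 genes VPA 1 and VPA 3 still lay above every lithium library. The count of 3 was 0 without lithium 1, 1 without lithium 2 and 5 with DESeq2.

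The lithium side held fewer and smaller differences, led by Aqp1, Inpp5d, Kdelc2, Nr2f1 and Il20rb by p-value. Aqp1, a water channel, was at 28.6, 35.8 and 31.6 CPM with VPA and 129, 107 and 128 CPM with lithium (log2 difference -1.92 ± 0.17; adjusted p = 0.000217, edgeR). Kdelc2, an endoplasmic reticulum glycosyltransferase, was at 67.1, 64.5 and 60 CPM against 157, 169 and 161 CPM (-1.34 ± 0.15). Nr2f1, an orphan nuclear receptor of neural development, was at 42, 38.3 and 32.1 CPM against 118, 92.3 and 117 CPM (-1.54 ± 0.17). Each group was tight in these 3 genes and the gap between groups was wider than either spread. Il20rb, a receptor subunit of interleukin-20 cytokines, was at 1.57, 1.83 and 0.728 CPM with VPA and 16.5, 12.9 and 8.2 CPM with lithium (-3.20 ± 0.37). Fam25a had the largest ranked size, at 0.393, 0.323 and 0.728 CPM against 6.85, 3.48 and 3.95 CPM (-3.25 ± 0.43). Olfm3, an olfactomedin of neurons, was at 0.314, 0.43 and 0.566 CPM against 6.15, 3.22 and 2.17 CPM (-3.10 ± 0.50), and Lsp1, an actin-binding protein of leucocytes, at 1.26, 3.12 and 1.29 CPM against 15.1, 10.6 and 12.4 CPM (-2.78 ± 0.35). These 4 were read at low levels with VPA, but each had counts in every VPA library. Mcpt8l2, a mast cell protease gene of a family of near-identical copies, is uncertain (10 counts with VPA and 96 with lithium; -3.14 ± 0.56, and -3.78 without VPA 3).

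Interferon-response genes gave the most calls of any list on the lithium side. Of 25 tested, 18 were higher with lithium, 1 with VPA and 6 were not called, with a median of -0.90; differences among the 18 were moderate, from 0.69 to 1.99 in size on the log2 scale. The summed level of the list overlapped between the groups, at 2018, 2433 and 2634 CPM with VPA and 2484, 2013 and 2193 CPM with lithium. Psmb10, a catalytic subunit of the immunoproteasome, was at 6.05, 7.85 and 10.5 CPM with VPA and 41.7, 22.5 and 33.1 CPM with lithium (log2 difference -1.99 ± 0.28; adjusted p = 0.00149, edgeR). Psmb8, another such subunit, was at 37.8, 44.7 and 42.5 CPM against 95.7, 81.1 and 85.1 CPM (-1.07 ± 0.16). Gbp2, an interferon-induced GTPase, was at 77.9, 64.6 and 61.2 CPM against 159, 137 and 121 CPM (-1.03 ± 0.17), and Parp9, which works with the ubiquitin ligase Dtx3l in antiviral defence, at 21.9, 26 and 26.8 CPM against 54.5, 47.4 and 46.8 CPM (-0.99 ± 0.17). VPA libraries were lower than every lithium library in these 4 genes. Of the transcription factors of the response, Irf1 and Irf7 were higher with lithium (-0.84 ± 0.16 and -0.99 ± 0.19; Irf7 was lost without both libraries numbered 3, adjusted p = 0.0589), while Irf8, read at about 1 CPM, was called on the VPA side (1.51 ± 0.39; adjusted p = 0.0322), a call lost with DESeq2 (0.0673), without both libraries numbered 3 (0.079) and without any 1 of VPA 1, VPA 2, VPA 3, lithium 1 and lithium 2 (0.054 to 0.13). B2m, the light chain of class I major histocompatibility molecules, was not called and pointed to VPA (0.66 ± 0.20; adjusted p = 0.0594), and it passed on that side with DESeq2 (0.00764), with library totals alone (0.041) and with no filter (0.04995). The count of 18 became 9 without VPA 2, 11 without lithium 1, 11 without lithium 3 and 9 without both libraries numbered 3. The control libraries of Psmb10 read 25.3, 45.9 and 32.7 CPM, of Psmb8 69.2, 93.9 and 83.1 CPM and of Gbp2 155, 139 and 106 CPM, in the range of the lithium libraries or near it.

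**Figure D5:**
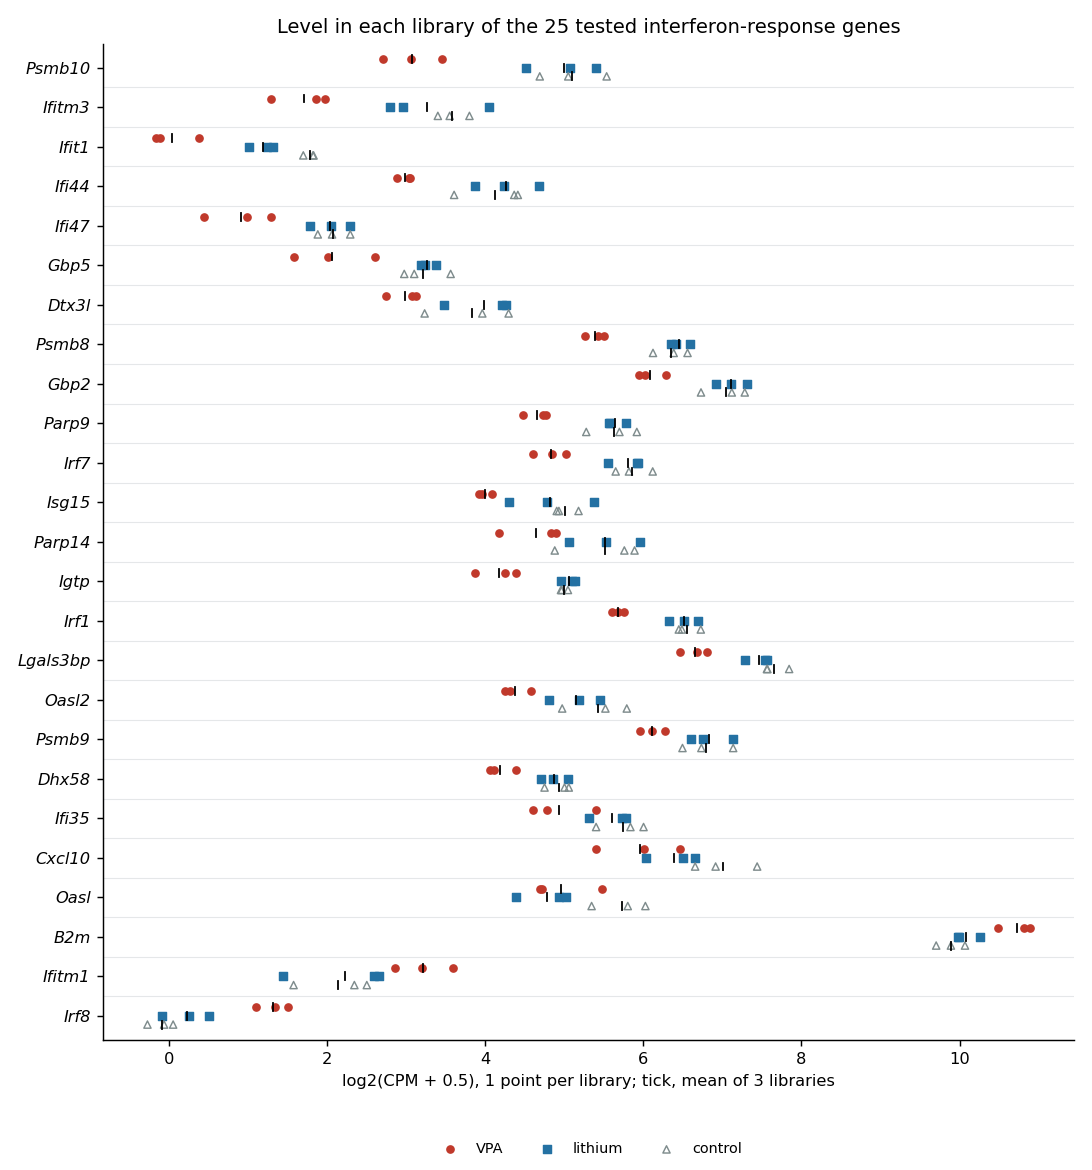
Each point is the level of 1 of the 25 tested interferon-response genes in 1 library, as log2(CPM + 0.5): red circles for VPA, blue squares for lithium, open triangles for the controls, and ticks for the means of 3 libraries. In the 18 genes called higher with lithium the VPA libraries lie to the left of the lithium libraries; Irf8 at the bottom is the 1 gene called the other way, and genes are not to be compared with each other since CPM is not corrected for length.

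Promoter letters were read for these genes because 18 of the 25 were called on the lithium side. In RefSeq's promoters of build GRCr8 (250 bases before to 50 after a gene's start, 24206 with 1 entry per symbol), the core of the interferon-stimulated response element, GAAA, then 2 bases of any kind, then GAAA, on either strand, was in 3.74% of all promoters. It was in 14 of the 21 interferon-list promoters with an entry (66.7%) and in 11 of the 15 that belong to genes higher with lithium (73.3%). The list was made of interferon-response genes, so a high share in it does not depend on these data. A link between the motif and the lithium side was not tested. Over all named genes it was in 9.41% of 202 promoters of lithium-higher genes, 1.42% of 424 of VPA-higher genes and 3.15% of 222 of genes not called. Of the 19 matching promoters of lithium-higher genes, 11 are those of the interferon list, so the 9.41% is not a separate result. The motifs were chosen after the values were seen, and a match is a description of letters and not a bound site. The 3 promoters below belong to the interferon genes of smallest p, with the matching letters in capitals, 5′ to 3′ along the gene: Psmb8 at chr20:4656982-4657281 on the minus strand, Psmb10 at chr19:50743243-50743542 on the minus strand and Gbp2 at chr2:234005477-234005776 on the plus strand. The matches begin 4 bases before the start of Psmb8, 73 and 17 before that of Psmb10 and 31 before that of Gbp2.
Psmb8: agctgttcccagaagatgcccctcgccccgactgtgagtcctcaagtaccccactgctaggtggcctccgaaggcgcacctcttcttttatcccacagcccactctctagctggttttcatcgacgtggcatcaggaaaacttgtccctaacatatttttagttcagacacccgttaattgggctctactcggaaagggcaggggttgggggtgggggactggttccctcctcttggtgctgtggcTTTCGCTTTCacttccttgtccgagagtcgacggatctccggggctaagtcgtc
Psmb10: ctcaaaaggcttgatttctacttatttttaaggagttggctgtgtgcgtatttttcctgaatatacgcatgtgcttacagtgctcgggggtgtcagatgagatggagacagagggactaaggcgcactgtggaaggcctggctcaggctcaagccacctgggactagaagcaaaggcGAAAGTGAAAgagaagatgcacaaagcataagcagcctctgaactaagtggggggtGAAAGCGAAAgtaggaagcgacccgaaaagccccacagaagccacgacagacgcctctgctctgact
Gbp2: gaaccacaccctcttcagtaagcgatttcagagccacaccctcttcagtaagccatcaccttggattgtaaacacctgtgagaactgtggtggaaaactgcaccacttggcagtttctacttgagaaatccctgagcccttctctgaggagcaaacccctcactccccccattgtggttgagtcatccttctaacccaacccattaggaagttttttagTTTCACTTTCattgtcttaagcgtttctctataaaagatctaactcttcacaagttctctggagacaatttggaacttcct

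On the VPA side the promoters of Vgf and Calr are shown for the same purpose. The cyclic AMP response element, TGACGTCA, which reads the same on both strands, was in 1.91% of all promoters, 2.83% of those of VPA-higher named genes, 0.99% of those of lithium-higher ones and 2.25% of those not called, a low share in each. Vgf (chr12:25276971-25277270, minus strand) held 1 match that begins 90 bases before its start. The endoplasmic reticulum stress response element, CCAAT, then 9 bases of any kind, then CCACG, on either strand, was in 0.0744% of all promoters; Calr (chr19:40213117-40213416, plus strand) held 1, whose first base lies 232 before the start, and was 1 of 3 chaperone promoters with an entry. Capitals mark the matches.
Vgf: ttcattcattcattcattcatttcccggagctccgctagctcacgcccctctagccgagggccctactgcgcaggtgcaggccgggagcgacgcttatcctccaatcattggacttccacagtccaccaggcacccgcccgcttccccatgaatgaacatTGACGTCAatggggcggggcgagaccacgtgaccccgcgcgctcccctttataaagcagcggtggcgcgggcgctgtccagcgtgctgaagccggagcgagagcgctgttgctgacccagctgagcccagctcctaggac
Calr: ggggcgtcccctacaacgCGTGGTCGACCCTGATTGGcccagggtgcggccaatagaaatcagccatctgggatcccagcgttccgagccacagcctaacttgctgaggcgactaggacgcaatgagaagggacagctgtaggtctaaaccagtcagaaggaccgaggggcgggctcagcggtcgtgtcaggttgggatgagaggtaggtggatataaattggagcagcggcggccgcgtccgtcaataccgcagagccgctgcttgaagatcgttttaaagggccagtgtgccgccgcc

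Of 11 tested chemokine and inflammatory genes 6 were higher with lithium, 1 with VPA and 4 were not called, with a median of -0.96. The 6 were the receptor genes Il20rb and Il1rl1, the inhibitors of NF-kappaB signalling Nfkbia and Tnfaip3, and the complement proteases C1s and C1r. The cytokine genes Ccl2, Il33 and Cx3cl1 were not called (adjusted p = 0.0508, 0.186 and 0.698, edgeR). Ccl2 pointed to lithium (-1.26 ± 0.36). It passed on that side with DESeq2 (adjusted p = 0.0151), and in edgeR with no filter (0.00356), with a replicate block (0.042) and without lithium 2 (0.0129). Nfkbia, the inhibitor that holds the transcription factor NF-kappaB in the cytoplasm, was at 13, 16 and 14.9 CPM with VPA and 30.3, 26.2 and 32.1 CPM with lithium (log2 difference -1.01 ± 0.18; adjusted p = 0.00567, edgeR). C1s, a protease that starts the classical complement cascade, was at 42.4, 42.6 and 45.6 CPM against 82.6, 69.4 and 86.2 CPM (-0.87 ± 0.16). Il11, a cytokine of the interleukin-6 family, was the gene on the VPA side, at 12.6, 16.3 and 12.3 CPM against 5.11, 4.47 and 6.19 CPM (1.38 ± 0.23). No group overlapped in any of these 3 genes. The summed level of the list was 255 to 287 CPM with VPA and 422 to 575 CPM with lithium.

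Genes of the extracellular matrix lay on both sides. Of 15 tested structural genes, 7 were higher with lithium and 3 with VPA (median -0.66), and of 16 tested genes of matrix proteolysis 7 were higher with VPA and 5 with lithium (median 0.18). The proteolysis shares were near those of all tested genes with a symbol, and the difference between the lists was not tested. Fn1, fibronectin, was at 1922, 1359 and 1193 CPM with VPA and 3468, 3105 and 2860 CPM with lithium (log2 difference -1.08 ± 0.23; adjusted p = 0.0119, edgeR), a call lost without VPA 2 (0.0517), with all 9 libraries (0.0522) and without both libraries numbered 3 (0.0812). Col3a1, a fibrillar collagen, was at 25.3, 27.1 and 15.9 CPM against 116, 66.6 and 70.3 CPM (-1.89 ± 0.26; adjusted p = 0.00155), and Tnc, tenascin C, at 65.1, 58.5 and 65.4 CPM against 102, 133 and 214 CPM (-1.25 ± 0.24; adjusted p = 0.00802, and 0.0507 with all 9 libraries). The basement membrane linker Nid1 went the other way, at 55.8, 52.1 and 62.6 CPM with VPA and 13.3, 21.8 and 25.3 CPM with lithium (1.49 ± 0.23). Fibrillar collagens were on both sides, since Col11a1 was higher with VPA (0.86 ± 0.18; adjusted p = 0.0109, and 0.0769 without both libraries numbered 3). Among the proteases and inhibitors, Timp1, an inhibitor of metalloproteinases, was at 693, 828 and 779 CPM against 431, 252 and 271 CPM (1.27 ± 0.22; adjusted p = 0.00492, and 0.0568 without both libraries numbered 3). Adamts1, a protease that cuts proteoglycans, was at 12.5, 13 and 14.6 CPM against 38.9, 33.5 and 40.2 CPM (-1.49 ± 0.18), so that Mmp13 and Timp1 were higher with VPA while this protease was higher with lithium. The structural count of 7 became 4 with all 9 libraries and 4 without both libraries numbered 3. The proteolysis count of 5 became 3 without VPA 1, VPA 2, lithium 3 or both libraries numbered 3, and 2 without lithium 1 or with all 9 libraries. RN46A was grown on collagen and fibronectin proteins in every group.

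Of 8 tested fibroblast and mesenchymal markers 3 were higher with lithium and 2 with VPA, and their summed level was 2634, 4232 and 2872 CPM with VPA and 6631, 5169 and 6162 CPM with lithium. S100a4, a calcium-binding protein of motile mesenchymal cells, was at 386, 664 and 421 CPM with VPA and 2474, 1098 and 1465 CPM with lithium (log2 difference -1.78 ± 0.31; adjusted p = 0.00507, edgeR). VPA 2 was high and lithium 1 highest within their groups, and the call was lost without both libraries numbered 3 (0.0584). The lithium-side count of 3 became 1 in that fit. The part of such markers in the matrix result was not tested.

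Of 10 tested genes of cell division 6 were higher with lithium, 2 with VPA and 2 were not called (Cdkn2a and Cdkn2b), with a median of -0.69. Tk1, thymidine kinase of S phase, was at 107, 105 and 126 CPM with VPA and 233, 186 and 237 CPM with lithium (log2 difference -0.96 ± 0.17; adjusted p = 0.00471, edgeR). Mcm7, a subunit of the replication helicase, was at 147, 145 and 165 CPM against 272, 237 and 266 CPM (-0.76 ± 0.15; adjusted p = 0.01, and 0.0565 without VPA 2). The 2 members on the VPA side were Cdkn1c and Ccnd2, an inhibitor of division and a cyclin read at 2.28, 1.83 and 2.1 CPM with VPA. Ccnd2 had 72 counts with VPA against 3 with lithium and passed the count filter only through the VPA libraries, so its side is a description. The well-read D-type cyclin Ccnd1 was called on the lithium side. That call was lost without VPA 2, VPA 3, lithium 3 and both libraries numbered 3. The count of 6 became 1 without VPA 2 and 3 without any other single library or without both libraries numbered 3. Hmgn2, a nucleosome-binding protein, was at 327, 321 and 306 CPM with VPA and 618, 516 and 541 CPM with lithium (-0.81 ± 0.16; adjusted p = 0.00935), and Anp32b, a histone chaperone, at 400, 398 and 381 CPM against 594, 606 and 626 CPM (-0.63 ± 0.16; adjusted p = 0.0275). Anp32b lost its call in every fit that left out 1 library (adjusted p 0.0607 to 0.107) and without both libraries numbered 3 (0.102).

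The control libraries, outside the fit, lay nearer lithium than VPA in most genes that separate the drugs. On the scale of log2(CPM + 0.5), the control mean was nearer the lithium mean in 819 of the 829 VPA-higher genes (98.8%) and in 360 of the 368 lithium-higher genes (97.8%), against 77.2% of all genes tested. In called genes without a symbol the shares were 98.2% and 96.5%. The control libraries did not overlap the VPA libraries in 94% of VPA-higher and 95.1% of lithium-higher genes, and did not overlap the lithium libraries in 7.84% and 7.61%; over all genes tested these shares were 25.7% and 3.28%. These shares use the same VPA and lithium libraries as the calls and are a description without a test. In 37 VPA-higher and 13 lithium-higher genes, of 74 among all genes tested, the controls lay between the drugs and clear of both. Zcchc12 was 1 of them, with controls at 5.16, 5.73 and 6.03 CPM above its lithium libraries and below its VPA libraries. Inpp5d was another, with controls at 6.45, 9.03 and 9.36 CPM, and so were Shank3 (1.11, 0.771 and 0.72 CPM) and Rbp2, a retinol-binding protein (2.12, 2.97 and 1.98 CPM against 0.628, 1.18 and 0.404 CPM with VPA and 4.51, 3.93 and 4.8 CPM with lithium). In these genes lithium and VPA libraries lay on opposite sides of the controls; whether lithium differs from control in them was not tested in this fit.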

How the data were processed

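RNA of RN46A cells was sequenced from polyadenylated, unstranded libraries with a RIN above 7, per the labels' protocols, so reads of overlapping or antisense genes cannot be told apart. The authors deposited a table of raw read counts per Ensembl gene of 32662 genes, with 0 lines that name no gene. The submitters' processing notes name, without roles, Cufflinks 2.2.1, sleuth, Salmon 0.6.1, DESeq2, STAR 2.5.1, CASAVA 1.8 and kallisto 0.42.4. Genome build: not given in the sources used here. The other deposited tables were used only for gene symbols (1310 identifiers with 1 unshared symbol); genes they do not name are not analysed here by name.

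The deposited counts of the 6 libraries were fitted with edgeR 4.0.16 (R 4.3.3) after filterByExpr at a minimum count of 10 and TMM scaling. The robust quasi-likelihood model had 1 mean per group and 4 residual degrees of freedom (biological coefficient of variation 0.204). Two-sided p-values were adjusted by Benjamini-Hochberg over 12548 genes and called under 0.05. Log2 differences are VPA minus lithium, and SE is the difference divided by the square root of F. The CPM of all 9 libraries is on the scale of this fit. Ratios of few counts have exact 95% counting intervals, and a floor of 3 counts over the group stands for 0. The fit was tested on simulated data. Libraries within a group differed by more than counting noise (chi-square per degree of freedom 27 to 49.4).

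Ranked names needed a call, a symbol, at least 1 CPM on average and groups that do not overlap: the 12 of largest difference, 6 of highest CPM and 5 of smallest p in each direction. Added to them were up to 4 members of each of 38 lists by p, and 23 fixed genes, of which 2 had a name and were tested. Further genes printed (exceptions of a list and uncalled members, Map2, Stmn4, Syn1, Shank1, Rtn4rl2, Pde9a, Akt1, Akt2, Irf1, Irf7, Irf8, B2m, Il1rl1, Tnfaip3, C1r) were chosen after their values were seen. Some genes that the rule names are not reported here. The libraries, the lists and the rule were chosen with earlier results of these data known. Alternatives were DESeq2 1.42.0, limma-voom (limma 3.58.1), other scalings and filters, all 9 libraries, a replicate block, a non-robust fit, each library left out, and, added after seeing the data, both libraries numbered 3 left out. Promoters are RefSeq's of build GRCr8, matched by symbol.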

Additional observations from a re-analysis of the deposited data

How the results depend on the processing

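The VPA-higher count of 829 was 714 to 1079 under the other tools, scalings and filters, all 9 libraries and the non-robust fit. The lithium-higher count of 368 was 295 to 496 there, except with no filter on low counts (586). Leaving out 1 library gave 519 to 788 and 182 to 306; the lone pairs of libraries are then assumed to vary like the other group. Without both libraries numbered 3, added after the data were seen, they were 547 and 176, of which 492 and 146 were among the 829 and 368. With a replicate block they were 910 and 408; same-numbered libraries deviated together with correlations of -0.187, 0.0495 and 0.537 over 10337 genes of at least 5 CPM, VPA 1 correlated best with lithium 2, and the numbers were not taken as pairs. Changing the scaling moved the median of all genes by at most 0.026 on the log2 scale and the VPA share of calls from 69.3% to between 69.9% and 71.8%. Over the single genes tested under the alternatives, none reversed, 396 values lost a call and 121 gained one. The cause of these changes was not tested, beyond fewer libraries in those fits. With 3 libraries a group and 9658054 to 13030300 counts each, genes under about 1 CPM rest on few counts, and a gene that was not called is not shown to be equal between the drugs.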

Other observations

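Transporters, metabolic enzymes and transcription factors included genes higher with either drug. Of 28 tested solute carriers 15 were higher with VPA and 3 with lithium, with a median log2 difference of 1.15; over all tested genes with a symbol, 49.8% were higher with VPA and 23.1% with lithium with a median of 0.86, so the VPA count is near that background. Slc6a15, a neuronal carrier of branched-chain amino acids, was at 10.6, 10.4 and 8.9 CPM with VPA and 1.47, 2.05 and 1.01 CPM with lithium (log2 difference 2.72 ± 0.30; adjusted p = 0.000521, edgeR). Slc1a1, a glutamate transporter of neurons, was at 7.07, 5.59 and 8.58 CPM against 1.73, 1.52 and 1.16 CPM (2.27 ± 0.30). Slc8a2, a sodium and calcium exchanger, was at 18.1, 17.2 and 31.6 CPM against 2.08, 1.7 and 4.88 CPM (2.93 ± 0.39, and 3.57 without lithium 3). All VPA libraries lay above all lithium libraries in these 3 genes. Of 7 tested glycolysis and hypoxia genes 4 were higher with VPA and 0 with lithium, among them Pdk1, which holds back pyruvate oxidation, at 88.1, 127 and 87 CPM against 52.2, 54.4 and 50.7 CPM (0.94 ± 0.18); the count of 4 became 2 without lithium 1.

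Of 5 tested genes of one-carbon, serine and amino acid synthesis 1 was higher with VPA and 3 with lithium, and the 3 became 1 without lithium 1, while the 1 became 2 with no filter, with a replicate block or without VPA 3. Gldc, the decarboxylase that breaks down glycine, was at 16.7, 15.8 and 22.2 CPM with VPA and 5.11, 5.72 and 6.81 CPM with lithium (log2 difference 1.63 ± 0.23; adjusted p = 0.00157, edgeR). Phgdh, the first enzyme of serine synthesis, was at 272, 265 and 193 CPM against 574, 447 and 391 CPM (-0.95 ± 0.20; adjusted p = 0.0131, and 0.0612 without lithium 1). Of 9 tested redox genes 3 were higher with VPA and 2 with lithium; these became 1 and 0 without both libraries numbered 3, and the 2 became 1 without any 1 of VPA 1, VPA 3, lithium 1 and lithium 3. Txnrd3, a thioredoxin reductase, was at 20, 27.5 and 21 CPM with VPA and 8.58, 7.06 and 6.5 CPM with lithium (1.63 ± 0.22), and Gpx1, a glutathione peroxidase, at 77.3, 80 and 77.6 CPM against 202, 116 and 142 CPM (-0.97 ± 0.20; adjusted p = 0.0119, and 0.0709 without both libraries numbered 3). Gstp1, a glutathione transferase with near-identical copies and therefore uncertain, was at 1058, 1756 and 1520 CPM against 824, 558 and 592 CPM (1.14 ± 0.24; adjusted p = 0.0122, and 0.109 without both libraries numbered 3).

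Of 13 tested homeobox and neurogenic transcription factors 5 were higher with VPA and 4 with lithium, near the shares of all tested genes with a symbol. The 5 became 2 without lithium 1 and 3 without VPA 2 or lithium 3, and the 4 became 1 or 2 in each fit that left out 1 library and 1 without both libraries numbered 3. Hoxb5, a Hox gene, was at 1.88, 1.94 and 1.78 CPM with VPA and 4.59, 5.9 and 4.49 CPM with lithium (log2 difference -1.41 ± 0.28). The VPA libraries hardly differed among themselves in it. Of 7 tested epithelial markers 4 were higher with VPA and 3 with lithium, beside 49.8% and 23.1% of all tested genes with a symbol. Esrp1, an epithelial splicing factor, was at 4.87, 3.01 and 4.13 CPM against 0.173, 0.715 and 0.31 CPM (3.32 ± 0.46, and 3.99 without lithium 2). The epithelial count of 3 became 1 without VPA 1, lithium 1 or lithium 3 and 0 without both libraries numbered 3.

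The GC box GGGCGG, read on both strands, was in 35.9% of all RefSeq promoters, 74.5% of the 424 promoters of VPA-higher named genes, 53.5% of the 202 of lithium-higher ones and 65.3% of the 222 of named genes not called. These are shares of letters in windows, chosen after the values were seen, and were not tested. A further 193 called identifiers higher with VPA and 73 higher with lithium were in none of the authors' tables that give names.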
